A study of Mus musculus with 6 samples.

Results

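The Janus kinases (JAKs) and the signal transducers and activators of transcription STAT3 to STAT6 were followed in cultured mouse eosinophils exposed to IL-33. The group is made of the rows of the deposited table whose gene symbol is Jak1, Jak2, Jak3, Tyk2, Stat3, Stat4, Stat5a, Stat5b or Stat6. All 9 were found among the 23420 genes of the table, 4 kinases and 5 transcription factors. The cells were bone marrow derived eosinophils of wild-type (WT) mice. Marrow was grown with stem cell factor and FLT3-L, each at 100 ng/mL, until day 4, and with IL-5 at 20 ng/mL from day 4 to day 14. After removal of dead cells, 3 samples received IL-33 at 2.5 ng/mL and 3 received phosphate-buffered saline (PBS) for 3 hours. Both groups therefore share the long exposure to IL-5, a cytokine that itself signals through this pathway, and the labels do not say whether IL-5 was present during those hours. The sources used here give no strain, sex or age of the mice. Whether the 3 samples of a group are separate cultures or animals is not stated. All p-values here therefore reflect spread among libraries that may be technical.

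JAKs are tyrosine kinases bound to the inner tails of cytokine receptors that have no kinase of their own. When a cytokine joins the receptor chains, the JAKs phosphorylate each other, the receptor and then STAT proteins, which pair, enter the nucleus and bind DNA. In eosinophils the IL-5 receptor signals mainly through JAK2 and STAT5, and the IL-4 and IL-13 receptors through JAK1, with JAK3 or TYK2, and STAT6. The IL-33 receptor belongs to another class and signals through MyD88 and NF-kB, not through a JAK bound to its own chains.

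Values are normalized counts, that is, reads per gene divided by a factor for each library, and differences are log2 fold changes of IL-33 over PBS on the log2(normalized count + 1) scale with their standard error (SE). They were tested with limma over 10544 genes, with Benjamini-Hochberg adjustment over all of them and a call at an adjusted p under 0.05. The libraries held 8218303 to 10785521 recovered reads. Reads of the ribosomal RNA precursor Rn45s made up 54.8% of IL-33 replicate 3, 59.6% of IL-33 replicate 2 and 13.7% to 24.8% of each other library, which left 4229504 to 7129435 reads for other genes. Of the eosinophil marker list, 9 of 10 genes were in the table and all 9 were tested. Their summed level was 53772 to 63748 in PBS and 25549 to 36580 in IL-33 libraries, with 6 genes lower and 1 higher. Most of that sum came from Prg2 (means 33228 in PBS and 14861 in IL-33 libraries) and Alox15 (11542 and 5925). The higher gene was Gata1 (log2 fold change 1.53), and Siglec5 (−0.54) and Il1rl1 (0.16) were not called. Markers of monocytes and macrophages (10 genes, 6 tested, 2 higher) summed to 2373 to 2647 in PBS and 5601 to 6079 in IL-33 libraries. Those of neutrophils (9 of 10 genes, 8 tested, 2 lower) summed to 2833 to 3529 and 2249 to 3013, those of mast cells and basophils (10 genes, 6 tested, 2 lower, Mcpt4 at 0 in all libraries) to 187 to 476 and 131 to 356. The 2 lower genes of the latter were Cpa3 (30.3 to 58.0 in PBS, 3.60 to 7.69 in IL-33 libraries) and Ms4a2 (10.1 to 23.1 and 1.69 to 5.39). Both passed the filter on low values only through the PBS libraries. Mcpt8, Prss34, Tpsb2 and Kit were not called. B cell markers (6 genes, 1 tested, not called) summed to 48.7 to 68.5 and 32.2 to 53.9, and dendritic cell markers (6 genes, 0 tested) to 14.7 to 17.9 and 11.9 to 22.5. The part of these shifts in the results on JAK and STAT genes was not tested beyond the alternative scalings given beside them. In bulk RNA, fewer cells of a type and less RNA per cell cannot be told apart.

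IL-33 was followed by higher mRNA of the kinases Tyk2 and Jak2 and of the transcription factor Stat5a, each called in 18 of 19 alternative analyses. Stat6 was called higher as well, but in only 7 of the 19 alternatives. Jak1, Jak3, Stat3 and Stat5b did not pass the test, and Stat4 was nearly absent. Of 8 members tested, 4 were called higher, against 17.4% of all genes tested, and 0 were called lower, against 14.4% (31.9% of all genes were called in either direction, and 10.9% higher by at least 2-fold). At an unadjusted p under 0.05 the lower count was also 0, as it was with edgeR and DESeq2. The median log2 fold change of the 8 members was 0.56, beside −0.03 over all genes tested. With equal totals leaving out Rn45s, 3 members were called higher and 1 lower (median 0.14, all genes −0.45), and with equal totals 0 and 1 (median −0.48, all genes −1.06). Without IL-33 replicate 1, 5 members were called higher, and 3 without any 1 of the other libraries. In 5 of the 8 (Jak2, Jak3, Tyk2, Stat5a and Stat6) each IL-33 library lay above each PBS library, against 25.5% of all genes tested (50.2% did not overlap in either direction).

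**Figure D1:**
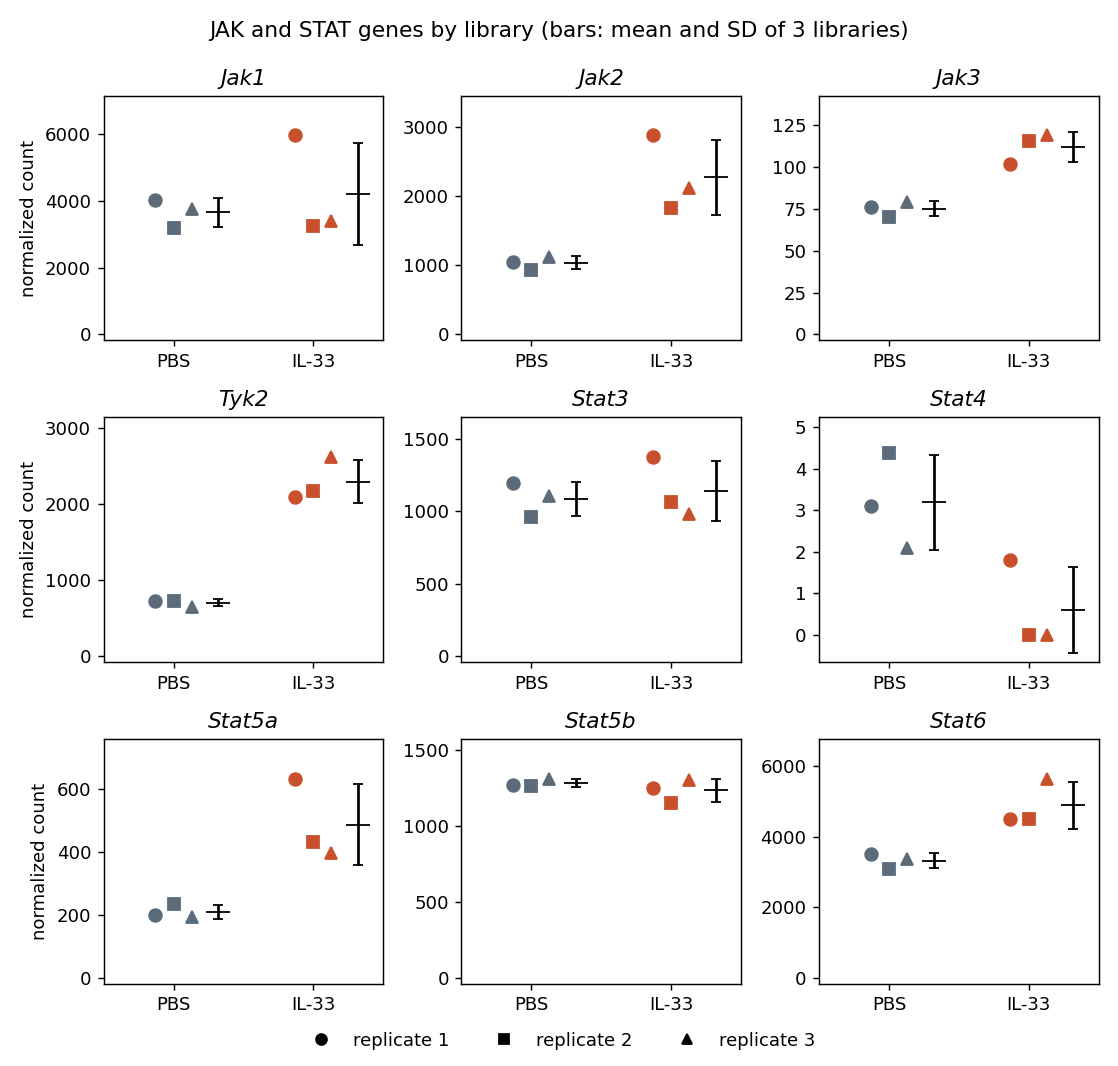
Normalized counts (vertical axis, starting near 0) of the 9 members in each PBS and IL-33 library, with marker shapes for replicate numbers and bars for mean and SD (n = 3). The IL-33 points of Tyk2 (2098 to 2620.2) lie above all PBS points (652 to 732), while those of Stat5b (1150.4 to 1303) and PBS (1264 to 1313) overlap.

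Tyk2, the kinase paired with interferon, IL-10, IL-12 and IL-13 receptors, had the largest change among the members tested. It lies on chromosome 9 (21104068 to 21131243, GRCm38, GENCODE vM21, as for all genes here). Its normalized counts were 732, 723 and 652 in PBS replicates 1, 2 and 3 and 2098, 2175 and 2620.2 in IL-33 replicates 1, 2 and 3. The groups did not overlap, and each IL-33 library stood far above each PBS library. Tyk2 rose from 702 ± 43.7 to 2298 ± 282 (SD, n = 3 each), a 3.26-fold change (log2 fold change 1.70, SE 0.16, adjusted p = 3.98e-04, limma). It ranked 101 of 10544 genes by p, and its log2 fold change was above that of 95.9% of them. It was called in 18 of 19 alternative analyses, the exception being scaling to equal totals (0.66, adjusted p = 0.0878, limma). That scaling moved the median of all genes to −1.06, and Tyk2 lay 1.72 above that median.

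Jak2, the kinase that IL-5, IL-3 and GM-CSF receptors use, lies on chromosome 19 (29251828 to 29313080) and was also higher. It had 1048, 933 and 1120.3 normalized counts in PBS replicates 1 to 3 and 2878, 1827 and 2118 in IL-33 replicates 1 to 3. All IL-33 libraries were higher than all PBS libraries, and replicate 1 was the highest. Jak2 rose from 1034 ± 94.2 to 2275 ± 543 (SD, n = 3 each), 2.16-fold (log2 fold change 1.11, SE 0.20, adjusted p = 0.00605, limma). It too was called in 18 of 19 alternatives and not with equal totals (0.07, adjusted p = 0.884, limma), where it lay 1.13 above the median of all genes.

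Jak1, which serves most cytokine receptors of this class, was the most abundant of the 4 kinases and was not called (chromosome 4, 101152367 to 101265282). PBS replicates 1 to 3 had 4017, 3183 and 3761, and IL-33 replicates 1 to 3 had 5954, 3242 and 3399.8. Only IL-33 replicate 1 stood above the PBS range, and the other 2 IL-33 libraries lay within it. The log2 fold change was 0.15 (SE 0.25, adjusted p = 0.655, limma) and turned to −0.13 without IL-33 replicate 1 and to −0.28 with equal totals leaving out Rn45s.

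Jak3, the partner of the common gamma chain and best known from lymphocytes, was low (chromosome 8, 71676296 to 71690575). It had 76.1, 69.8 and 79.0 in PBS and 102, 115 and 119 in IL-33 replicates 1 to 3. The groups did not overlap, yet the change (75.0 ± 4.67 to 112 ± 9.04, SD, n = 3 each) missed the threshold (log2 fold change 0.57, SE 0.19, adjusted p = 0.0547, limma). It passed in 5 of 19 alternatives, among them DESeq2 (adjusted p = 0.0433) and the fit without IL-33 replicate 1 (0.64, adjusted p = 0.0177, limma), and fell to −0.46 with equal totals. Markers of T and NK cells summed to 16.1 to 26.2 normalized counts in PBS and 27.7 to 37.8 in IL-33 libraries. Of the 12 of 13 T and NK genes in the table, 1 (Cd3d) passed the filter on low values and was not called, while Ncr1, Gzma and Gata3 were at 0 in all 6 libraries. The part of such cells in the Jak3 value was not tested.

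Stat5a had the largest change among the STAT members tested, which leaves out Stat4. STAT5A and STAT5B are near-identical proteins that carry the signal of the IL-5 receptor. Stat5a had 199, 235 and 194 normalized counts in PBS replicates 1 to 3 and 634, 432 and 397 in IL-33 replicates 1 to 3. The groups did not overlap, with replicate 1 highest. Stat5a rose from 209 ± 22.6 to 488 ± 128 (SD, n = 3 each), 2.28-fold (log2 fold change 1.19, SE 0.22, adjusted p = 0.00676, limma). It was called in 18 of 19 alternatives, not with equal totals (0.15, adjusted p = 0.766, limma), where it lay 1.21 above the median of all genes.

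Stat5b, the paralog, had 1271, 1264 and 1313 in PBS and 1252, 1150.4 and 1303 in IL-33 replicates 1 to 3, so the groups overlapped. Its log2 fold change was −0.06 (SE 0.14, adjusted p = 0.782, limma). It was called lower with equal totals (−1.10), with equal totals leaving out Rn45s (−0.48) and after quantile normalization (−0.43), and relative to the median of all genes it lay at −0.04, −0.03 and −0.37 in these. Reads of the pair may be split between them where the sequences are the same. Of all 50-base stretches of the annotated Stat5a transcripts 8.21% also occur in Stat5b transcripts, and of those of Stat5b 10.98% occur in Stat5a. Read on the same strand, no other pair of members shared a 50-base stretch.

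Dividing a library by 1 factor leaves the ratio of Stat5a to Stat5b within it unchanged, apart from the pseudocount. Its log2 value was −2.67, −2.42 and −2.76 in PBS and −0.98, −1.41 and −1.71 in IL-33 replicates 1 to 3. The ratio was thus higher in each IL-33 library than in any PBS library, by 1.25 on the log2 scale between means (exact permutation test, two-sided, p = 0.1, the smallest that 3 against 3 allows). After quantile normalization, which is not such a factor, the log2 fold changes were 1.08 for Stat5a and −0.43 for Stat5b. Stat5a nevertheless remained the lower of the pair in every library.

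Stat6, the factor downstream of IL-4 and IL-13 (chromosome 10, 127642986 to 127660957), was the most abundant member per kilobase. It had 3499, 3079.8 and 3370.0 in PBS replicates 1 to 3 and 4509.9, 4491 and 5640.3 in IL-33 replicates 1 to 3. The groups did not overlap. Stat6 rose from 3316 ± 215 to 4880.3 ± 658 (SD, n = 3 each), 1.47-fold (log2 fold change 0.55, SE 0.16, adjusted p = 0.0325, limma), a call that did not hold in most alternatives. Adjusted p was 0.0738 without IL-33 replicate 2, 0.0645 without IL-33 replicate 3, and 0.0805, 0.143 and 0.121 without PBS replicate 1, 2 and 3 (limma), with log2 fold changes of 0.61, 0.44, 0.59, 0.50 and 0.56. It was 0.13 with equal totals leaving out Rn45s, −0.02 after quantile normalization and −0.49 with equal totals, none called, and 7 of 19 alternatives called it.

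Stat3, which carries signals of IL-6 and IL-10 family cytokines, was not called. It had 1191, 957 and 1101 in PBS and 1373, 1061 and 983 in IL-33 replicates 1 to 3, and the groups overlapped (log2 fold change 0.06, SE 0.18, adjusted p = 0.809, limma). Its sign changed to −0.08 without IL-33 replicate 1 and to −0.02 without PBS replicate 2.

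Stat4, the factor of IL-12 signalling in T and NK cells (chromosome 1, 51987148 to 52107189), lay below the filter and was not tested. Its reads numbered 4, 6 and 3 in PBS replicates 1 to 3 and 2, 0 and 0 in IL-33 replicates 1 to 3. A count of 0 allows up to 4.61 and 5.08 normalized counts in IL-33 replicates 2 and 3, above every PBS value (2.10 to 4.37). Over the groups, the ratio of IL-33 to PBS was 0.268 with a 95% exact interval of 0.0293 to 1.18, which covers counting error only, so a difference was not detectable at this depth.

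The starts of these genes differ in base composition. The windows below run from 250 bases before to 50 bases after an annotated RefSeq start (GRCm38.p6, the build named mm10 in the submitters' processing notes), written in the direction of the gene. They are shown for the 3 members that changed at least 2-fold, Jak2, Tyk2 and Stat5a (with both of its listed starts), and for the first start of Stat5b, whose level did not pass the test. Capitals mark a match to the NF-kB consensus, the only match in these 5 windows to any motif searched.
Jak2 start, chr19:29251553-29251852, plus strand: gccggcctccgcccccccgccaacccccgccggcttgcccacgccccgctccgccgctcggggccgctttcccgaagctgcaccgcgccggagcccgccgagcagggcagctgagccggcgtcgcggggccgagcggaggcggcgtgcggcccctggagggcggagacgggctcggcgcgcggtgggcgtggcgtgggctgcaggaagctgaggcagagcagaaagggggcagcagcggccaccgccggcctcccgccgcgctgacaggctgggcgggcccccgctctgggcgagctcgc
Tyk2 start, chr9:21131226-21131525, minus strand: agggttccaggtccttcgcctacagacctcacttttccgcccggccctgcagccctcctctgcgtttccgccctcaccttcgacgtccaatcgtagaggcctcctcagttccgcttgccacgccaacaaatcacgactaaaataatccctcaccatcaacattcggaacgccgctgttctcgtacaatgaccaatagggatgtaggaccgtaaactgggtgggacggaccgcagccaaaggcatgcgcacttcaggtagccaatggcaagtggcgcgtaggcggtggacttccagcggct
Stat5a first start, chr11:100859406-100859705, plus strand: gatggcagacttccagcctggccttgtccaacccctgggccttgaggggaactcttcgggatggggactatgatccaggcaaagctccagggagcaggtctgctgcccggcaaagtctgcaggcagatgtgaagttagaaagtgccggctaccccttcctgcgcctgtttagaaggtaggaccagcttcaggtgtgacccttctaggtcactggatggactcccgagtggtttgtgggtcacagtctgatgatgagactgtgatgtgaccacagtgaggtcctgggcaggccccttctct
Stat5a second start, chr11:100860234-100860533, plus strand: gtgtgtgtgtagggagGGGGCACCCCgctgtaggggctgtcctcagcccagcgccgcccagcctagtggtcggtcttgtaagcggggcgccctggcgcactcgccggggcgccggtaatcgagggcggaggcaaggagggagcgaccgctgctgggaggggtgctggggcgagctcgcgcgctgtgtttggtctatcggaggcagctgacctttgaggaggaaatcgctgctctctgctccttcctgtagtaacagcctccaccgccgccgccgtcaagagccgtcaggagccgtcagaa
Stat5b first start, chr11:100850532-100850831, minus strand: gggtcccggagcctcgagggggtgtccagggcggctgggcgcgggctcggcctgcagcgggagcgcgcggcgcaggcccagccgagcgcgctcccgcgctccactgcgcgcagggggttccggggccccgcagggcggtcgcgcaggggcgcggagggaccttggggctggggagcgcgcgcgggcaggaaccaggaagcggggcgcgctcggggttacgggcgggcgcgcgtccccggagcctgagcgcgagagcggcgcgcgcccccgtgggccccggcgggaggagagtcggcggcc

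G and C made up 81% of the Jak2 window and 82.7% of the first Stat5b window, against 58% for Tyk2 and 57.7% and 67.7% for the Stat5a windows. The second Stat5b window, not printed above, had 47.3%, so the 2 Stat5b starts lay on both sides of the Stat5a windows. The median was 52.7% over 32851 windows of the table. The motifs were searched on both strands of the 12 listed windows of the 9 members: TTCNNNGAA, bound by most STATs, its form with 1 more N, preferred by STAT6, TGANTCA, bound by AP-1, and the NF-kB consensus. The NF-kB match GGGGCACCCC in the second Stat5a window begins 234 bases before the start site. Of all windows 4.51% held an NF-kB match, 8.30% TTCNNNGAA, 6.95% the form with 1 more N and 7.81% TGANTCA. A match describes letters only, and the absence of these letters in a window says nothing of binding elsewhere.

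Levels of different genes compare only per length. In PBS libraries, the normalized count per kilobase of annotated exons was highest for Stat6 (753 ± 48.8) and then Jak1 (506 ± 59.1), Stat5b (232 ± 4.81), Jak2 (206 ± 18.7), Stat3 (114 ± 12.4), Tyk2 (102 ± 6.36), Stat5a (29.3 ± 3.16), Jak3 (14.01 ± 0.872) and Stat4 (0.824 ± 0.294) (SD, n = 3 each). Only the neighbours Stat3 and Tyk2 overlapped in their library values. In IL-33 libraries Stat6 stayed first (1109 ± 149.5), followed by Jak1 (581 ± 211), Jak2 (452 ± 108) and Tyk2 (335 ± 41.0), and then Stat5b (223 ± 14.1), Stat3 (119.6 ± 21.7), Stat5a (68.3 ± 17.9), Jak3 (20.9 ± 1.69) and Stat4 (0.155 ± 0.268). Here Jak1 overlapped with Jak2, and Jak2 with Tyk2. Tyk2 thus stood above Stat3 and Stat5b in all 3 IL-33 libraries. Per length of the longest transcript, Tyk2 (476 ± 58.4) came before Jak2 in IL-33 libraries (SD, n = 3).

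The share of Jak1 in the summed level of the 4 kinases per kilobase was lower in IL-33 libraries. Jak1 itself was not called, at 506 ± 59.1 per kilobase in PBS and 581 ± 211 in IL-33 libraries. A gain of other kinases lowers the share of Jak1 even where Jak1 stays the same. The sum was 827 ± 73.7 in PBS and 1389 ± 296 in IL-33 libraries (SD, n = 3 each). Jak1 made up 62.8%, 59.2% and 61.0% of that sum in PBS replicates 1 to 3 and 47.9%, 39.0% and 36.3% in IL-33 replicates 1 to 3. The share of Tyk2 was 12.0%, 14.2% and 11.1% in PBS and 17.8%, 27.5% and 29.5% in IL-33 libraries. That of Jak2 went from 24.9% ± 1.28 to 32.4% ± 0.837 and that of Jak3 was 1.70% ± 0.0788 and 1.56% ± 0.406 (SD, n = 3 each). Shares of Jak1, Jak2 and Tyk2 did not overlap between groups, and those of Jak3 did. These shares depend on each other, and no such shares of other genes were computed to set beside this. Within the STAT genes, the share of Stat5a went from 2.61% ± 0.424 to 4.54% ± 1.35, that of Stat6 from 66.7% ± 0.812 to 72.8% ± 3.72 and that of Stat5b from 20.5% ± 1.01 to 14.7% ± 0.607 (SD, n = 3 each).

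**Figure D2:**
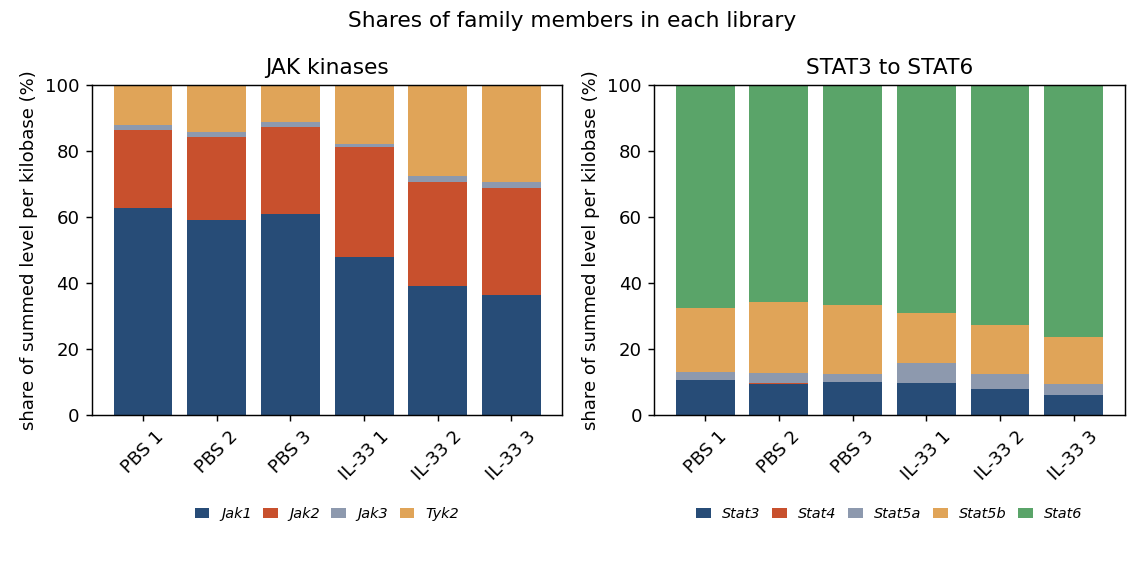
Share of each member (vertical axis, percent) in the summed normalized count per kilobase of its family, by library. The Jak1 part of the bar shrinks from 59.2% to 62.8% in PBS to 36.3% to 47.9% in IL-33 libraries, while Stat6 holds most of the STAT bar in all 6.

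Ratios between members within a library were compared next, since dividing a library by 1 factor changes them only through the pseudocount. Quantile normalization does change them. Of 36 pairs, 25 had ratios that did not overlap between groups. The pairs reuse 9 genes, and no share over pairs of other genes was computed to set beside this count. With the 8 pairs that hold the sparse Stat4 left out, 17 of 28 did not overlap. The smallest exact permutation p was 0.1, the lowest this design allows, and 0.144 after Benjamini-Hochberg adjustment over the 36 pairs, so no pair can pass. Tyk2 gained on Stat5b by 1.76, on Stat3 by 1.64, on Jak1 by 1.55 and on Stat6 by 1.15 (log2, difference of mean ratios). Jak2 gained on Stat5b by 1.17, on Stat3 by 1.05 and on Jak1 by 0.96. The ratios of Tyk2 to Jak2, Tyk2 to Stat5a and Jak2 to Stat5a overlapped between groups. Jak1, Stat3 and Stat5b also overlapped in all 3 ratios among themselves.

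**Figure D3:**
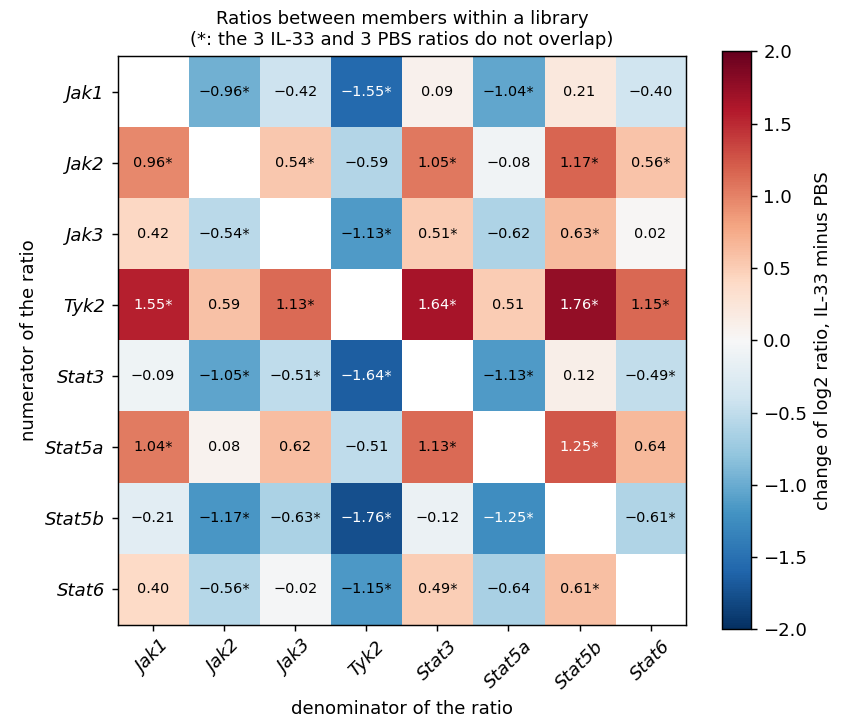
Change of the log2 ratio of each member (row) to each other member (column), IL-33 minus PBS, for the 8 members tested. Tyk2 has positive values in its whole row, from 0.51 against Stat5a to 1.76 against Stat5b, and asterisks mark pairs whose IL-33 and PBS ratios do not overlap.

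The IL-33 libraries were not alike for all members. Against the PBS mean, Stat5a was higher by 1.60, 1.05 and 0.93 (log2) in IL-33 replicates 1, 2 and 3, Jak2 by 1.48, 0.82 and 1.04 and Jak1 by 0.71, −0.17 and −0.10. Tyk2 was higher by 1.58, 1.63 and 1.90 and Stat6 by 0.45, 0.44 and 0.77, with replicate 3 the highest for both. Replicate 1, whose Rn45s share lay within the PBS range, thus had the highest Jak1, Jak2, Stat3 and Stat5a values of its group. With log2 of the Rn45s share as a covariate, Tyk2 (1.54, adjusted p = 0.00408), Jak2 (1.53, adjusted p = 0.00418) and Stat5a (1.51, adjusted p = 0.0139) kept their calls and Stat6 did not (0.48, adjusted p = 0.224, all limma).

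**Figure D4:**
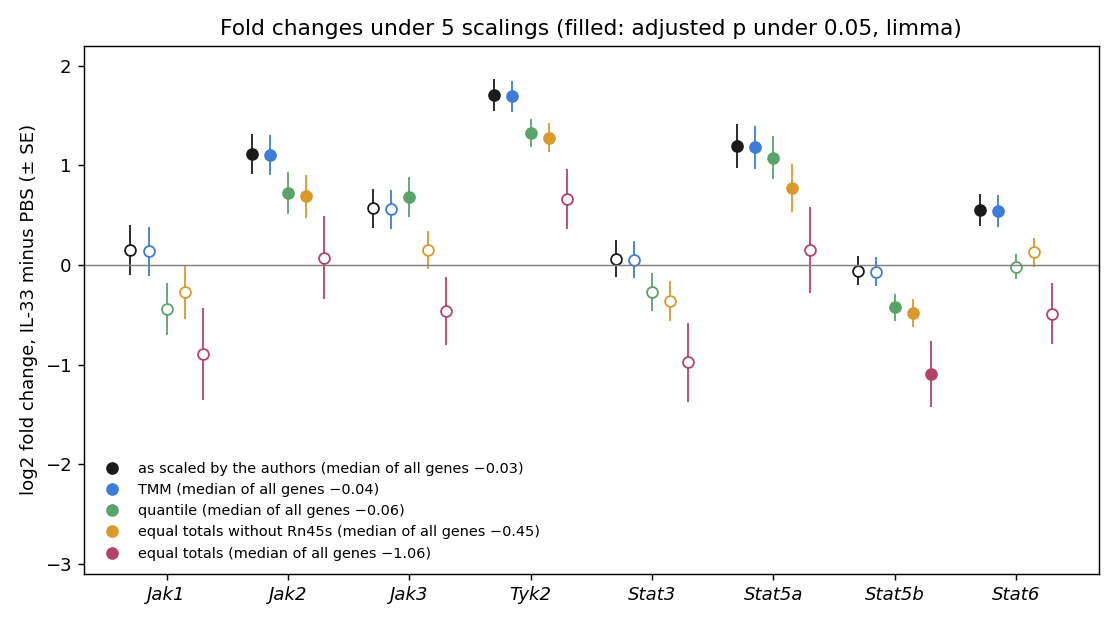
Log2 fold changes of the 8 members tested (vertical axis, with SE) under 5 scalings of the libraries, filled where the adjusted p was under 0.05 (limma). Scalings to equal totals shift all genes down, to medians of −0.45 without Rn45s and −1.06 with it, and Tyk2 stays above 0 throughout (0.66 to 1.70).

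Some STAT genes sit side by side. On chromosome 11, Stat5b (100780731 to 100850724, minus strand), Stat5a (100859351 to 100885169, plus strand) and Stat3 (100885098 to 100939540, minus strand) follow each other, with 8626 bases between Stat5b and Stat5a, while the ends of Stat5a and Stat3 overlap by 72 bases. Of the 3, only the middle gene was called. The overlap covers 1.01% of Stat5a and 0.756% of Stat3 exonic bases.

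Stat2, a STAT gene of interferon signalling outside the members, was lower. It had 328, 362 and 359 normalized counts in PBS and 201, 219.9 and 224 in IL-33 replicates 1 to 3. Its change on the log2 scale (−0.70, SE 0.16, adjusted p = 0.0158, limma) was opposite to that of the called members, and Stat2 was called lower under all 5 scalings of the libraries. The call was lost on leaving out IL-33 replicate 2 (−0.72) or PBS replicate 1, 2 or 3 (−0.74, −0.67 and −0.68), where adjusted p was 0.0527, 0.0501, 0.0865 and 0.0879 (limma), and with the Rn45s covariate (−0.76, adjusted p = 0.0845, limma).

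Next to Tyk2, 1978 bases away on the same strand, Cdc37, a co-chaperone that helps HSP90 fold kinases, was higher as well (log2 fold change 1.16, adjusted p = 0.00539, limma). Nab2, which runs against Stat6 and overlaps its last 40 bases, was higher (1.47, adjusted p = 0.0033, limma). Genes beside members that were not called also passed the test. Ak4, 153994 bases from Jak1, was higher (4.11, adjusted p = 2.98e-04, limma), as was Ghdc beside Stat5b (1.42, adjusted p = 0.0293, limma), and Atp6v0a1 beside Stat3 was lower (−0.66, adjusted p = 0.0159, limma). Ak4 had 10.9, 5.82 and 4.89 normalized counts in PBS replicates 1 to 3 and 115 to 181 in IL-33 libraries. It thus passed the filter on low values only through the IL-33 libraries, and its call is a description. On the other side of Tyk2, Raver1 was higher (0.79, adjusted p = 0.0364, limma). Not called were Rcl1 beside Jak2 (0.48, adjusted p = 0.406) and Unc13a beside Jak3 (0.23, adjusted p = 0.625, both limma). Neither were Raver2 beside Jak1 (−0.67, adjusted p = 0.453) and Lrp1 beside Stat6 (−0.08, adjusted p = 0.882, both limma). Over all genes tested, 31.9% were called in either direction. Raver1 and Atp6v0a1 lost their calls without IL-33 replicate 2 or any 1 PBS library (0.70 to 0.92 and −0.73 to −0.61), and Ghdc without any 1 library but IL-33 replicate 1 (1.07 to 1.52). The Nab2 overlap covers 0.909% of Stat6 exonic bases, and reads there may not be told apart, as nothing says that counting used strand. Of Tyk2 exonic bases 8.07% overlap 1700084C06Rik, a gene on the other strand not analysed here, and of Jak3 bases 7.55% overlap Insl3, at 0.728 to 2.10 normalized counts in PBS and 1.54 to 5.08 in IL-33 libraries.

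Among receptor chains that work through JAKs, chains of the IL-10, IL-4, IL-3 and GM-CSF receptors were among those called higher. Il5ra, a chain of the IL-5 receptor, and Csf3r were called lower. Of 36 listed, 23 were tested, 11 were called higher, 2 lower and 10 not, beside 17.4% higher and 14.4% lower over all genes, with a median log2 fold change of 0.35, which turned to −0.07 with equal totals leaving out Rn45s (8 higher, 2 lower) and to −0.69 with equal totals (1 higher, 6 lower). Il10ra, a chain of the IL-10 receptor, had 218, 173 and 182 in PBS and 1864, 2087 and 2237 in IL-33 replicates 1 to 3 (3.43, SE 0.17, adjusted p = 2.77e-05, limma). Il4ra, the chain shared by IL-4 and IL-13 receptors, had 466, 376 and 428 in PBS and 1202, 1304 and 1642 in IL-33 replicates 1 to 3 (1.70, SE 0.18, adjusted p = 7.51e-04, limma). Il2rg, the common gamma chain that binds JAK3, rose by 1.70 (SE 0.21), and Il5ra fell by 2.53 (SE 0.36). Il3ra (1.22, adjusted p = 0.0450) and Csf2ra (1.04, adjusted p = 0.0465), chains of the IL-3 and GM-CSF receptors, were called higher near the threshold (limma). Csf3r was called lower (−0.94, adjusted p = 0.0454, limma). The remaining chains called, all higher, were Crlf2, Il6ra, Il27ra, Il10rb, Ifnar1 and Ifngr2. Csf2rb, the common beta chain that binds JAK2, was not called (0.23, SE 0.17, adjusted p = 0.332, limma), with 46500 in PBS replicate 1 and 35615 to 52588 in the others. Without PBS replicate 3 the list had 7 higher and 1 lower, and the lower count was also 1 on leaving out any of the other libraries but IL-33 replicate 1.

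Of 24 ligand genes, 8 were tested, 5 were called higher and 1 lower, beside 17.4% and 14.4% of all genes, with a median of 1.28. Scaled to equal totals, the list had 2 higher and 1 lower, with a median of 0.27. Il6 had the largest change of the ligands tested, from 9.48 ± 2.71 to 299 ± 240 (4.54, SE 0.55, SD, n = 3 each). Its values in IL-33 replicates 1 to 3 were 567, 228 and 103, and it passed the filter on low values only through these libraries. Il13 went from 17.0 ± 3.56 to 157 ± 25.5 (3.14, SE 0.26) and Ebi3, a subunit of IL-27 and IL-35, from 96.3 ± 5.05 to 348 ± 57.0 (1.83, SE 0.19, SD, n = 3 each). Il2, Il3, Il5, Il9, Il12a, Il12b, Il21 and Ifng were at 0 in all 6 libraries. The lower gene was Il15 (−1.80, SE 0.52), not called without IL-33 replicate 3 (−1.44, adjusted p = 0.0582, limma), after quantile normalization (−1.36, adjusted p = 0.075, limma) or with the Rn45s covariate (−2.15, adjusted p = 0.136, limma). It fell below the filter without any 1 PBS library, and 2 ligands were lower without IL-33 replicate 1.

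Of 18 negative regulators, all tested, Socs1, Socs2, Socs3, Socs4, Socs5, Socs7, Cish, Ptpn1, Ptpn11 and Pias4 were called higher and Pias3 lower, 10 and 1, beside 17.4% and 14.4% of all genes. Socs6, Ptpn2, Ptpn6 and Ptprc were among those not called. The list had a median of 0.77, which turned to −0.27 with equal totals (2 higher, 4 lower). Cish, a SOCS family inhibitor that STAT5 induces, had 117, 87.3 and 90.9 in PBS and 939, 503 and 598 in IL-33 replicates 1 to 3 (2.74, SE 0.26, adjusted p = 4.29e-04, limma). As with Jak2 and Stat5a, IL-33 replicate 1 was the highest. Socs3 went from 82.9 ± 9.44 to 219 ± 3.38 (1.40, SE 0.18) and Ptpn1, a phosphatase of JAK2 and TYK2, from 1241 ± 39.7 to 4608 ± 1159 (1.86, SE 0.20, SD, n = 3 each). There were 6 higher without PBS replicate 3, 4 lower without IL-33 replicate 1, and 0 lower without any 1 of the other 5 libraries. Of 14 adaptors and coactivators, 5 were higher and 2 lower (median −0.01), beside the same 17.4% and 14.4%. Scaled to equal totals, the list had 0 higher and 7 lower, with a median of −1.05, and without a single library the counts ran from 1 to 6 higher and from 0 to 6 lower. Hsp90ab1, a chaperone of JAKs, was higher (1.59, SE 0.27, adjusted p = 0.00528, limma). With equal totals, calls were lost by genes named in these lists and loci, among them Il4ra, Il2rg, Ebi3, Socs1 and Socs3. Hsp90ab1, Cdc37, Nab2, Ghdc and Raver1 lost theirs as well. Of the negative regulators, 2 were then called higher in place of 10. Cdc37 (0.99, adjusted p = 0.0575, limma) and Socs1 (1.03, adjusted p = 0.153, limma) also lost their calls with the Rn45s covariate. So did Ghdc (0.41, adjusted p = 0.528, limma) and Raver1 (1.07, adjusted p = 0.0714, limma).

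Textbook targets of STAT5 and STAT3 that were called were higher, and those of STAT6 went in both directions. Of 15 STAT5 targets tested, 12 were called higher and 0 lower (median 1.40), and of 13 STAT3 targets 10 and 0 (median 1.51), beside 17.4% and 14.4% of all genes. With equal totals the counts were 5 higher and 1 lower (median 0.36) and 4 and 2 (median 0.47). The 2 lists share 5 genes, 29.4% of the STAT5 and 33.3% of the STAT3 list. Pim1, a survival kinase on both lists, had 319, 254 and 275 in PBS and 2779, 3316 and 3974 in IL-33 replicates 1 to 3 (3.56, SE 0.19, adjusted p = 3.62e-05, limma). Bcl2l1, which encodes Bcl-xL, rose by 4.27 (SE 0.26), and Bcl3 by 3.61 (SE 0.21). Genes such as Bcl3, Icam1 and Bcl2l1 are also known targets of NF-kB. Of 11 STAT6 targets tested, 3 were higher, Cish, Il4ra and Socs1, and 2 lower, Alox15 (−0.96, SE 0.15, adjusted p = 0.00342, limma) and Chi3l3. With equal totals 1 was higher and 3 lower (median −0.72). Cish and Socs1 are also on the STAT5 list and Il4ra on the STAT3 list. Socs1 (1.14) lost its call without PBS replicate 1 (1.10, adjusted p = 0.0614, limma) or 3 (0.99, adjusted p = 0.0848, limma). Chi3l3 (−1.53, adjusted p = 0.0442, limma) was called without IL-33 replicate 1 and lost its call without any 1 of the other libraries. The lower count was 1 for each of STAT5 and STAT3 targets without IL-33 replicate 1. The lists were written with earlier results of these data known, so the counts are descriptions.

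**Figure D5:**
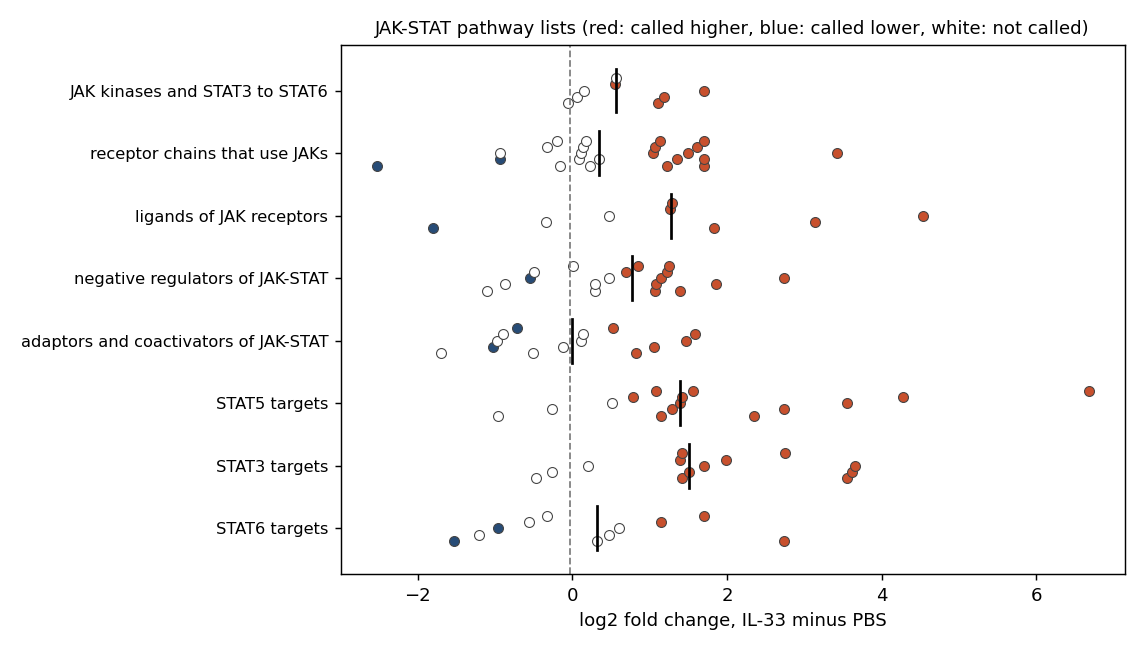
Log2 fold changes (horizontal axis) of tested members of each list, red where called higher, blue where called lower and white where not called (limma). Black bars are list medians, from −0.01 for adaptors and coactivators to 1.51 for STAT3 targets, and the dashed line is the median of all genes (−0.03).

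Genes with the most similar profile to each member were named by Pearson correlation of log2 values over the 6 libraries. The candidates were the tested genes outside the members. Predicted gene models (Gm followed by digits) and names ending in Rik were left out, so a gene of these kinds may be closer. The libraries share the treatment, depth and Rn45s pattern, and the closest were picked from what remained of the 10544 genes, so these r are descriptions. Tyk2 was closest to Kdm6b, a histone demethylase gene (r = 0.999), Eid3 and Itsn1. Jak2 was closest to Traf3, an adaptor of TNF receptors (r = 0.999), Zfp868 and Rela, which encodes an NF-kB subunit (r = 0.990). Stat5a was closest to Sept11 (r = 0.998), Ipo5 and Il6 (r = 0.992), and Stat6 to Nanos1 (r = 0.999), Syap1 and Opa3. Jak3 was closest to Bcl9, Cxcl16 and Ctu1. Jak1 (Bsg, Pgam5, Ccl3), Stat3 (Mrps6, Sh3bgrl3, Gde1) and Stat5b (Clock, Rabepk, Gtpbp5) were closest to genes that were not called either. Among the members, Jak1 and Stat3 had r = 0.942, Jak2 and Stat5a 0.952 and Tyk2 and Jak3 0.962, while Stat5b had r between −0.44 and 0.14 with the others.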

How the data were processed

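RNA-seq of 6 samples was analysed, 3 per group. Per the submitters' processing notes, HISAT2, HTSeq, DESeq2 and the mm10 build were used, with versions, annotation and strand setting not given in the sources used here. The deposited values are a signal per gene, read counts divided by a library factor. In each library 100% of values were whole multiples of the smallest value within 0.1 read, so reads were recovered.

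Log2(value + 1) was tested with limma 3.58.1 (R 4.3.3, lmFit and eBayes with trend), unpaired, on genes with at least 10 in at least 3 libraries, with Benjamini-Hochberg adjustment. On recovered reads, edgeR 4.0.16 called 1909 genes higher and 1479 lower, and DESeq2 1.42.0 called 2238 and 1624. In all, 19 alternatives were run (pseudocounts, filters, scalings, tools, a covariate, a replicate block and each library left out). Fits were also run on simulated counts as a check of the code. These counts did not mimic the uneven Rn45s shares. Named were the members, Stat2, Rn45s, Il5ra, Csf2rb, Il4ra, genes from each list's called members with the smallest adjusted p (up to 4 per direction), and neighbours. The 3 genes most correlated with each tested member were also named, chosen outside the members and without Gm and Rik names. Not all of these are described, and further list and marker genes are named where their counts are given. Members, lists and markers were chosen with earlier results of these data known. Log2 fold changes understate changes of low genes.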

Additional observations from a re-analysis of the deposited data

How the results depend on the processing

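Among the members, Tyk2, Jak2 and Stat5a were called in every alternative except equal totals. With equal totals, 264 genes were called higher and 5287 lower, with 0 members higher and 1 lower, and leaving out Rn45s 951 and 3570, with 1 member lower (negative regulators 4 lower, adaptors 1 higher and 6 lower, STAT5 and STAT3 targets 1 lower each). Signs turned with equal totals for Jak1 (−0.89), Jak3 (−0.46), Stat3 (−0.98), Stat6 (−0.49), Csf2rb (−0.81), Irf9 (−0.21) and Raver1 (−0.24), with equal totals leaving out Rn45s for Jak1 (−0.28), Stat3 (−0.36) and Csf2rb (−0.20), and after quantile normalization for Jak1 (−0.44), Stat3 (−0.27), Stat6 (−0.017) and Csf2rb (−0.015), which also called 1 member lower. The Rn45s covariate left 606 higher and 373 lower. With pseudocount 5 the Jak3 to Stat6 ratio changed by −0.0045. Per longest transcript, PBS levels were 744.8 for Jak1, 18.52 for Jak3, 145.5 for Tyk2, 179.3 for Stat3, 52.84 for Stat5a, 246.1 for Stat5b and 878.5 for Stat6. Leaving out 1 library gave 695 to 2910 genes higher and 318 to 2950 lower, Jak1 from −0.13 to 0.31 and Stat3 from −0.079 to 0.16 (−0.023 without PBS replicate 2). Counts then ran from 7 to 12 higher and 1 to 3 lower for receptor chains, 0 to 2 lower for ligands, 6 to 11 higher and 0 to 4 lower for negative regulators, 1 to 6 and 0 to 6 for adaptors, 0 to 1 lower for STAT5 and for STAT3 targets and 1 to 2 lower for STAT6 targets. The causes were not tested. Whether the replicate numbers pair the libraries is not stated. Correlations of deviations between libraries of the same number were 0.0459, 0.242 and −0.164, which cannot settle it with 3 libraries per group. With a replicate block, 1620 genes were higher and 1298 lower, 3 members stayed higher, and Stat6 (0.55) had an adjusted p of 0.057 (limma). Low reads limit Stat4.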
